A study of Mus musculus with 8 samples.

Results

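The thyroid hormone genes described here are 9 genes chosen by name among the 27179 genes of the count table. They are the receptors Thra and Thrb, the deiodinases Dio1, Dio2 and Dio3, the transporter Slc16a10, the corepressor Ncor1, the coactivator Med1 and the response gene Thrsp. A count was present in any library for 8 of them, and 7 passed the filter on low counts and were tested. Dio1 and Dio3 were not tested. The data come from RNA-seq of neonatal cardiomyocytes (NCMs), each library made from the heart of 1 male C57Bl/6J pup at postnatal day 0 (PND0). Dams breathed filtered air (FA, 4 libraries, replicates 2, 3, 4 and 6) or diesel exhaust (DE, 4 libraries, replicates 1, 3, 5 and 7) from the first day of gestation until shortly before birth, and the labels name no other treatment or allele. The comparison asks how in utero exposure to DE relates to transcription in NCMs. NCMs were enriched by pre-plating, which removes cells that attach early, so other heart cells can remain. The labels do not give the litters, and libraries from pups of 1 dam would not be independent.

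Thyroid hormone leaves the thyroid mostly as thyroxine, enters cells through transporters of the SLC16, SLC7 and SLCO families, and is converted to the more active triiodothyronine or inactivated by deiodinases. Triiodothyronine binds nuclear receptors that sit on DNA, often as partners of retinoid X receptors, at elements built from the hexamer AGGTCA. Without hormone the receptors hold corepressors such as NCoR1, and with hormone they hold coactivators such as the Mediator subunit MED1. In the rodent heart around birth, the rise of the hormone accompanies the switch from β-myosin to α-myosin heavy chain and the maturation of calcium handling.

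The promoter windows of Thrb and Slc16a10 are printed because these genes had the largest estimated differences among the 7 tested. Both are RefSeq sequences on GRCm38.p6, the assembly that mm10 stands for, from 250 bases before to 50 bases after the transcription start, 5′ to 3′. Capitals mark AGGTCA. The Thrb window, the upstream of 2 that RefSeq gives for this gene, is at chr14:17660710-17661009 on the plus strand and the Slc16a10 window is at chr10:40142205-40142504 on the minus strand.
Thrb: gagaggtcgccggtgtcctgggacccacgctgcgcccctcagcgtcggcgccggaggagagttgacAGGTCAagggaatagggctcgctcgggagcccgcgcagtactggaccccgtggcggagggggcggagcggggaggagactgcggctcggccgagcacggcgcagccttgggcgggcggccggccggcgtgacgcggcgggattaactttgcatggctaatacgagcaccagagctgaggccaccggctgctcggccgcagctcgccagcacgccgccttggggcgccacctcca
Slc16a10: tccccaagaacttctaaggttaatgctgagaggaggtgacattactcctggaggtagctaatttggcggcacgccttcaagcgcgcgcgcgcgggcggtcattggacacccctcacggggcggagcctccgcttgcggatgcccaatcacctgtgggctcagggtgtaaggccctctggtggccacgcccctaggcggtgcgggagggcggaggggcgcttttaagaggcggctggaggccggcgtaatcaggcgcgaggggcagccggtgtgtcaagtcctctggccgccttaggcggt
The hexamer in the upstream Thrb window begins 184 bases before the start, on the plus strand, while the second Thrb window (chr14:17981394-17981693, plus strand) and the Slc16a10 window hold none. Windows were found for 8 of the 9 genes, 10 in all, Thra having no entry, and 1 of the 10 held AGGTCA or its reverse complement TGACCT. Over all 32851 RefSeq promoters of the same length, 16.3% held the hexamer on either strand. The direct repeat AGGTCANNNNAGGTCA, with a gap of 4 bases, was in 0.0152% of all windows and the palindrome AGGTCATGACCT was in 0, and neither was in a window of the 9 genes. These matches describe letters in the sequence and are not evidence of binding.

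Between 17943024 and 39839737 counts were assigned per library, and the biological coefficient of variation across genes was 15.9%. Ventricular cardiomyocyte markers were abundant in all libraries, their 10 genes summing to 53308 to 59111 CPM (counts scaled to the normalized library total) in FA and 51753 to 61971 in DE. Of these, 9 had lower estimates in DE (median log2 fold change -0.11) and Myh7, which is also a thyroid hormone response gene, was called higher. Fibroblast markers summed to 2008 to 3461 CPM in FA and 3655 to 6177 in DE, with all 8 estimates higher in DE and 2 called (Col1a1, kept in all 19 alternatives, and Dcn, lost in 8). Smooth muscle and pericyte markers summed to 1557 to 2120 CPM in FA and 1099 to 1506 CPM in DE, with 4 of 8 estimates lower and 0 called, and erythroid markers to 429 to 1023 CPM in FA and 674 to 1123 CPM in DE, with all 5 tested higher and 1 called (Slc4a1). Estimates were higher in DE for 7 of 8 endothelial markers (median 0.17) and for 4 of 5 tested leukocyte markers (median 0.49), with 0 called in either list. Atrial markers summed to 549 to 1317 CPM in FA and 537 to 822 CPM in DE, with 4 of 6 estimates higher (median 0.26), 2 lower and 0 called. Hepatocyte markers summed to 4.38 to 6.54 CPM in FA and 5.17 to 12.7 CPM in DE, with Alb and Afp at or below 0.0574 CPM in every library, and of the 4 tested 3 had higher estimates (median 0.62) and 0 were called. After the group code, the sample names carry a number before the replicate, here called the name prefix, that is 12 for DE replicates 3 and 5 and 11 for the other 6 libraries, and whose meaning is not given in the sources used here. No FA library carries 12, so with the prefix as a term the exposure estimate rests on DE replicates 1 and 7 against FA. That is nearly the same contrast as the fit with prefix 11 alone. In both fits, an effect of the prefix and the loss of DE libraries cannot be told apart. Genes with the longest 10% of transcripts (6863 bases or more) had a median log2 fold change of -0.21, against 0.16 for the shortest 10%. In bulk RNA, fewer cells of a type and less RNA per cell cannot be told apart.

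None of the 7 tested thyroid hormone genes was called different between DE and FA NCMs. Calls were made in edgeR's quasi-likelihood test at a Benjamini-Hochberg adjusted p of at most 0.05 and a difference of at least 25%, which 868 of 14966 genes met (5.8%, with 3.58% higher and 2.22% lower in DE). Estimates were lower in DE for 5 genes and higher for 2, with a median log2 fold change of -0.13 against 0.00 over all tested genes. That median was -0.25 without FA replicate 6, -0.21 without DE replicate 7, -0.09 without FA replicate 4, -0.06 with library totals alone and -0.03 with the sample name prefix as a term. At an unadjusted p under 0.05, 3 of the 7 passed (Thrb, Slc16a10 and Ncor1), against 25.6% of all tested genes. In 0 of the 7 were the FA and DE libraries without overlap, which was so for 14.7% of all tested genes.

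Levels per kilobase of exon can be compared between genes, and in FA they ordered the 9 genes as Thra, Ncor1, Med1, Slc16a10, Dio2, Thrsp, Thrb, Dio3 and Dio1. Thra had 23.2 ± 3.91 CPM per kb (SD, n = 4), higher than 87.2% of 13851 tested genes with a known length. Ncor1 had 15.4 ± 2.96 and Med1 had 10.3 ± 1.56 CPM per kb. Slc16a10 had 3.90 ± 0.610 CPM per kb, higher than 46.8% of those genes, and Dio2 had 0.996 ± 0.192, higher than 22.0%. Thrsp (0.454 ± 0.0493) and Thrb (0.330 ± 0.0439) followed. The FA libraries of Thra and Ncor1 overlapped, those of the other neighbours from Ncor1 down to Dio3 did not, and Dio3 and Dio1 were both at or near 0. The receptor pool of these NCMs was mostly Thra at the RNA level, the ratio of Thra to Thrb per kb running from 53.3 to 86.8 in FA and from 57.7 to 151 in DE. Counts are for whole genes, so the hormone-binding and non-binding isoforms of Thra were not separated.

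Thra (chr11:98740776-98769006, plus strand) encodes thyroid hormone receptor alpha, the main receptor of heart muscle. It was at 115, 113, 119 and 80.1 CPM in FA replicates 2, 3, 4 and 6, and at 96.9, 91.7, 89.1 and 112 CPM in DE replicates 1, 3, 5 and 7. FA replicate 6 was the lowest of all 8 libraries, and all DE libraries fell between it and the other FA libraries. The log2 fold change was -0.13 (SE 0.13, 95% interval -0.43 to 0.16, adjusted p = 0.554 in edgeR), so a difference beyond 0.743-fold or 1.12-fold lies outside the interval. Without FA replicate 6 the estimate was -0.25 (adjusted p = 0.169) and with the name prefix as a term it was -0.03 (adjusted p = 0.943), over a range of adjusted p from 0.169 to 0.944 in 19 alternatives. The 263 exon bases that Thra shares with the antisense gene Nr1d1, a circadian repressor, are 5.7% of its exons. Nr1d1 was at 127 to 145 CPM in FA and 130 to 162 CPM in DE, with a log2 fold change of 0.03 (adjusted p = 0.854) whose sign turned in 5 of 19 alternatives. Whether counting used strand is not given in the sources used here.

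Thrb (chr14:17659225-18040097, plus strand), the beta receptor, prominent in liver, pituitary and sensory organs, was the scarcer receptor. It was at 2.38, 2.09, 2.88 and 2.41 CPM in FA replicates 2, 3, 4 and 6, and at 2.69, 0.975, 1.07 and 1.33 CPM in DE replicates 1, 3, 5 and 7. DE replicate 1 lay inside the FA range, and the other 3 DE libraries lay below every FA library. The log2 fold change was -0.68 (SE 0.30, 95% interval -1.35 to -0.01, unadjusted p = 0.0468, adjusted p = 0.189 in edgeR), which was not a call. These levels rest on 42 to 89 counts per library in FA and 25 to 89 in DE.

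A single library decided the Thrb call. Without DE replicate 1 the log2 fold change was -1.13 (adjusted p = 0.0133 in edgeR, where 7.93% of all genes were called), and over all 19 alternatives the adjusted p ran from 0.0133 to 0.753. The 2 DE libraries with prefix 11 averaged 2.01 CPM and those with prefix 12 averaged 1.02 CPM, and with the prefix as a term the estimate was -0.22 (adjusted p = 0.730). With length and GC offsets it was -0.55 (adjusted p = 0.160). DE replicates 3 and 5 are also the libraries in which the longest 10% of transcripts were lowest, at median centred log2 levels of -0.28 and -0.32, and the Thrb transcript is 6200 bases long. The part of prefix or length in this difference was not tested beyond those fits.

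By profile over the 8 libraries, the genes most like Thra were Yap1, Yy1 and Cul3, with root mean square differences of 0.0384, 0.0495 and 0.0591 on the log2 CPM scale after centring each gene on its mean. Those most like Thrb were Mab21l1, Abcd2 and Trmt44, at 0.157, 0.165 and 0.171. The median over 14590 genes was 0.300 for Thra and 0.594 for Thrb. These are descriptions of shared profiles, which share library and depth. Of the 3 retinoid X receptors, the partners of both receptors, 0 were called. Rxra was at 43.0 to 66.4 CPM in FA and 48.4 to 55.9 in DE (log2 fold change -0.15, adjusted p = 0.490), Rxrb was at 41.8 to 55.5 and 36.7 to 44.8 CPM (-0.17, adjusted p = 0.367), and Rxrg was near 1 CPM. The Rxra estimate was -0.27 without FA replicate 6, -0.09 without FA replicate 3 and -0.07 with the name prefix as a term. Rxrb was called lower in 1 of 19 alternatives, the fit with length and GC offsets (-0.33, adjusted p = 0.0418).

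Of the deiodinases, Dio2, which makes triiodothyronine from thyroxine inside the cell, was the only one with more than a few counts. Dio2 (chr12:90724552-90739038, minus strand) was at 6.76, 6.13, 6.09 and 4.18 CPM in FA replicates 2, 3, 4 and 6, and at 9.62, 5.54, 5.59 and 8.05 CPM in DE replicates 1, 3, 5 and 7. DE replicates 1 and 7 were above every FA library, and DE replicates 3 and 5 lay inside the FA range. For Dio2 the log2 fold change was 0.30 (SE 0.21, 95% interval -0.16 to 0.77, adjusted p = 0.393 in edgeR). The same split followed the name prefix, with means of 8.84 CPM for prefix 11 and 5.56 CPM for prefix 12 among DE libraries. With the prefix as a term the log2 fold change was 0.61 (adjusted p = 0.104), and without DE replicate 1 it was 0.12 (adjusted p = 0.725), and the adjusted p ran from 0.0938 to 0.725 over 19 alternatives.

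Dio1, the deiodinase of liver, kidney and thyroid, had 0 counts in all 8 libraries, and a count of 0 allows up to 0.0748 to 0.169 CPM depending on the library. Dio3, which inactivates both hormones and is high in placenta and fetal tissue, had 2, 0, 1 and 0 counts in FA replicates 2, 3, 4 and 6, and 5, 0, 0 and 2 counts in DE replicates 1, 3, 5 and 7. The ratio of DE to FA was 1.76 with a counting interval of 0.401 to 10.5, and an exact two-sided permutation test of CPM gave p = 0.886, where 0.0286 is the smallest that 4 against 4 libraries allow. A difference in Dio3 was not detectable at this depth. Intervals and floors cover counting error only.

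Dio3 (chr12:110279230-110281097) lies at the end of an imprinted domain in which Dlk1 and Rtl1 are read from the paternal chromosome and the long RNAs Meg3, Rian and Mirg from the maternal one. The domain was expressed in these NCMs, and 3 of its genes were called higher in DE, where 3.58% of all tested genes were. Dlk1, which encodes a Notch-related membrane protein, was at 48.1, 47.6, 47.7 and 68.7 CPM in FA replicates 2, 3, 4 and 6 and at 125, 119, 102 and 126 CPM in DE replicates 1, 3, 5 and 7. No DE library overlapped an FA library, and the log2 fold change was 1.15 (SE 0.14, adjusted p = 0.00131 in edgeR). Meg3 rose by 0.75 (SE 0.12, adjusted p = 0.00769) from 92.7 to 129 CPM in FA to 168 to 214 CPM in DE, and Rian rose by 0.71 (SE 0.14, adjusted p = 0.0160). The Rian call was lost without FA replicate 2 (adjusted p = 0.0510) and without FA replicate 4 (0.0642), over a range of 0.000124 to 0.0642 in 18 alternatives, while those of Dlk1 and Meg3 were kept in all 19. Mirg had a log2 fold change of 0.72 (adjusted p = 0.0945) and was called in 3 alternatives, among them the fit without FA replicate 6 (0.95, adjusted p = 0.0407). Rtl1, from the paternal chromosome like Dlk1, was at 0.399 to 1.19 CPM in FA and 0.516 to 0.746 CPM in DE, with a log2 fold change of -0.29 (adjusted p = 0.593) that was -0.48 without FA replicate 3, -0.04 without FA replicate 4 and -0.05 with the name prefix as a term. The span of Rtl1 overlaps those of Meg3 and Rian, so reads there could be split between them if counting ignored strand. Dio3os, the antisense neighbour of Dio3, had 0 counts in every library.

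Fibroblast markers also had higher estimates in DE, and among them Col1a1 was at 385 to 609 CPM in FA and 780 to 1174 CPM in DE. Likeness of their profiles to those of Dlk1 and Meg3 over the libraries was not measured. The part of fibroblasts in the rise of Dlk1, Meg3 and Rian was not tested.

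Slc16a10 (chr10:40033532-40142270, minus strand) encodes MCT10, which carries thyroid hormones and aromatic amino acids. It was at 33.3, 28.5, 30.4 and 22.7 CPM in FA replicates 2, 3, 4 and 6, and at 21.2, 19.6, 22.9 and 22.6 CPM in DE replicates 1, 3, 5 and 7. All DE libraries lay below FA replicates 2, 3 and 4, and the groups overlapped only because FA replicate 6 was below DE replicate 5. The log2 fold change was -0.41 (SE 0.12, 95% interval -0.69 to -0.14, unadjusted p = 0.00646, adjusted p = 0.0732 in edgeR). Of the 7 tested genes it was the nearest to a call.

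The side of the threshold on which Slc16a10 fell depended on the test. DESeq2 gave an adjusted p of 0.0348 and edgeR's likelihood ratio test 0.0369 with log2 fold changes of -0.41 and -0.42, and these tests called 10.8% and 10.7% of all genes. Without FA replicate 6 the quasi-likelihood test gave -0.51 (adjusted p = 0.0272, with 5.34% of all genes called). Limma-voom, which called 5.75% of all genes, gave -0.41 (adjusted p = 0.0786), and the adjusted p ran from 0.0272 to 0.226 over 19 alternatives. The estimate was -0.39 with the name prefix as a term (adjusted p = 0.195) and -0.32 with length and GC offsets (adjusted p = 0.0804), the value nearest to 0 and just under the 25% difference, and it was below 0 in all 19 alternatives.

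Of 9 other transporters listed, 7 were tested and 0 were called. The amino acid transporter Slc7a5 (LAT1) and its heavy chain Slc3a2, which together also carry thyroid hormone, had log2 fold changes of 0.27 (adjusted p = 0.211) and 0.48 (adjusted p = 0.117). With the name prefix as a term, Slc3a2 was at 0.18 (adjusted p = 0.608). Slco2b1, an organic anion transporter, was at 4.83 to 7.48 CPM in FA and 3.52 to 4.68 CPM in DE without overlap, with a log2 fold change of -0.59 (adjusted p = 0.0562, range 0.0160 to 0.160). It was called in 4 of 19 alternatives, among them the fit without FA replicate 3 (-0.69, adjusted p = 0.0470). Of the genes for hormone binding and disposal, 3 of 5 were tested and 0 called.

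**Figure D1:**
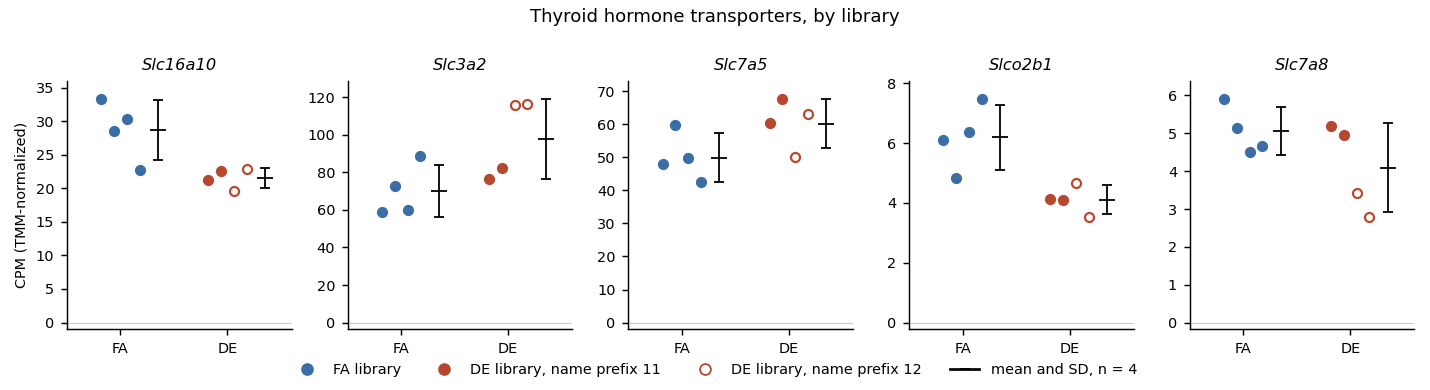
Level of 5 thyroid hormone transporters in each library, in TMM-normalized CPM, with FA in blue, DE in red (open circles for the name prefix 12) and the mean and SD of 4 libraries. All DE libraries lie below 3 of the 4 FA libraries for Slc16a10 and below every FA library for Slco2b1.

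Ncor1 (chr11:62315663-62457414, minus strand) encodes the corepressor that unliganded receptors bind, together with HDAC3. It was at 232, 160, 227 and 168 CPM in FA replicates 2, 3, 4 and 6, and at 176, 131, 134 and 179 CPM in DE replicates 1, 3, 5 and 7. FA replicates 2 and 4 were the highest, DE replicates 3 and 5 the lowest, and the other 4 libraries lay between. For Ncor1 the log2 fold change was -0.35 (SE 0.16, 95% interval -0.69 to -0.00342, unadjusted p = 0.0481, adjusted p = 0.191 in edgeR). The Ncor1 transcript, at 9037 bases, is among the longest 10%, whose median centred log2 level was 0.32 and 0.29 in FA replicates 2 and 4, -0.28 and -0.32 in DE replicates 3 and 5, and between -0.12 and 0.10 in the others. With offsets that flatten the trend of each library over length and GC content, the Ncor1 estimate was -0.16 (adjusted p = 0.135), and with the name prefix as a term it was -0.15 (adjusted p = 0.680). Of 5 other members of the corepressor complex listed, 4 were tested and 0 were called.

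Med1 (chr11:98152154-98193313, minus strand) encodes the Mediator subunit through which liganded receptors contact RNA polymerase. It was at 105, 74.7, 98.1 and 83.7 CPM in FA replicates 2, 3, 4 and 6, and at 87.6, 73.1, 78.7 and 94.9 CPM in DE replicates 1, 3, 5 and 7, so the groups overlapped over most of their range. Its transcript, at 8024 bases, is also among the longest 10%. The log2 fold change was -0.11 (SE 0.13, adjusted p = 0.601 in edgeR), and it turned positive with the name prefix as a term (0.01) and with length and GC offsets (0.07). The 32 other Mediator subunits listed had a median log2 fold change of -0.02, with 17 estimates lower and 15 higher. Of these 0 were called with all libraries and in 16 of 19 alternatives, and at most 2 in the others (2 without DE replicate 1). Among the most abundant, Med13l had 0.0015 (adjusted p = 0.997), and Med13 and Med14 had -0.56 (adjusted p = 0.159) and -0.47 (adjusted p = 0.108). With the prefix as a term Med13 and Med14 were both at -0.23, and with length and GC offsets they were at -0.29 and -0.30. Both have transcripts among the longest 10%. Of 10 other receptor coactivators 0 were called, and all 10 had lower estimates in DE, with a median of -0.27. In 7 of 19 alternatives 9 of the 10 were lower, namely with library totals alone, with the name prefix as a term, with prefix 11 alone, and without FA replicate 3 or 6 or DE replicate 1 or 7. Among them, 6 have transcripts in the longest 10%, of which 73.5% had lower estimates, and the median was -0.16 with length and GC offsets and -0.12 with the name prefix as a term. Among them the energy-metabolism coactivator Ppargc1a had -0.26 (adjusted p = 0.310) and the acetyltransferase Kat2b had -0.39 (adjusted p = 0.165), which became -0.02 and -0.16 with the prefix as a term. Prmt1, also among the most abundant of the 10, had -0.03 (adjusted p = 0.918) and ran from -0.10 to 0.03 with 1 library left out.

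**Figure D2:**
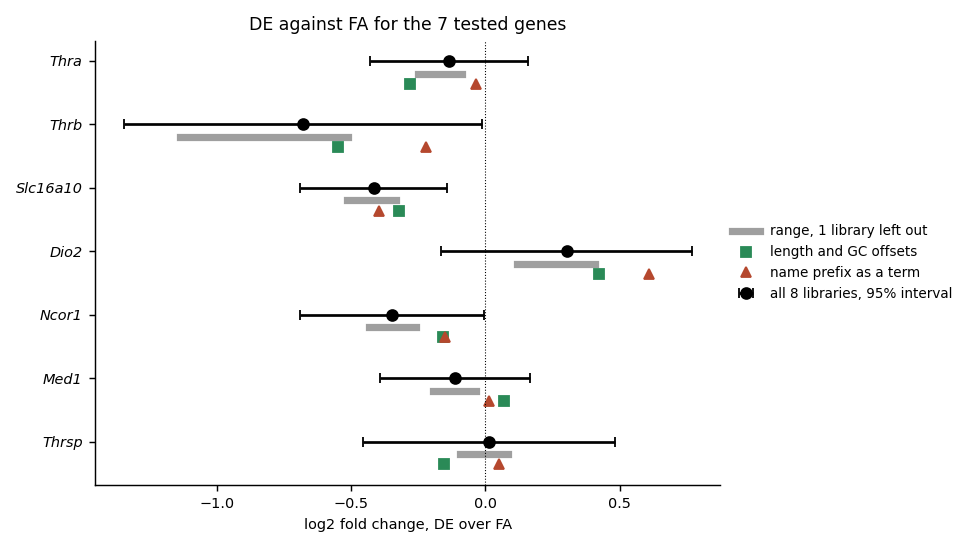
Log2 fold change of DE over FA for the 7 tested genes, with the 95% interval from all 8 libraries (black), the range with 1 library left out (grey) and the estimates with length and GC offsets (green) and with the name prefix as a term (red). Thrb has the widest interval, -1.35 to -0.01. The estimates drawn are all below 0 for Thra, Thrb, Slc16a10 and Ncor1 and all above 0 for Dio2, while the intervals of Thra and Dio2 cross 0.

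Thrsp (chr7:97412933-97417550, minus strand), also called Spot14, is a lipogenic gene that thyroid hormone induces strongly in liver and fat. It was at 0.988, 1.15, 0.903 and 0.934 CPM in FA replicates 2, 3, 4 and 6, and at 0.847, 1.00, 0.948 and 1.28 CPM in DE replicates 1, 3, 5 and 7, from 16 to 38 counts per library. The highest and the lowest level were both in DE. The log2 fold change was 0.01 (SE 0.21, 95% interval -0.45 to 0.48, adjusted p = 0.976 in edgeR), and its sign turned in 5 of 19 alternatives. Of 7 genes listed beside it as lipogenic genes or relatives of Thrsp, 3 were called (5.8% of all tested genes). The paper describes Acacb, the mitochondrial acetyl-CoA carboxylase, as a key regulator of fatty acid oxidation. Acacb fell by 1.04 on the log2 scale (adjusted p = 0.000686), and the desaturase gene Scd1 rose by 1.30 (adjusted p = 0.00736). Elovl6, a fatty acid elongase, rose by 0.50 (adjusted p = 0.0349), a call lost in 8 of 19 alternatives, among them the fits without FA replicates 2, 3 or 4 or DE replicates 3, 5 or 7 (adjusted p 0.0599 to 0.113) and that with the prefix as a term (0.51, adjusted p = 0.0766). Srebf1 had a log2 fold change of 0.35 (adjusted p = 0.0643) and was called in 3 of 19 alternatives. Mid1ip1, the closest relative of Thrsp, had a log2 fold change of 0.24 (adjusted p = 0.193). Adipocyte markers summed to 14.5 to 19.7 CPM in FA and 8.50 to 11.1 CPM in DE, most of it Cidea, a lipid droplet protein gene of brown fat and other tissues, which fell by 0.92 (adjusted p = 0.00373) and was 1 of 2 markers tested. The other, Ucp1, the uncoupling protein of brown fat, had a log2 fold change of 0.73 (adjusted p = 0.354). Plin1 and Adipoq were at or below 0.143 CPM in every library, and the part of adipocytes in the calls of Acacb, Scd1 and Elovl6 was not tested.

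Genes known to respond to thyroid hormone moved in both directions in DE NCMs. Of 13 cardiac genes that the hormone induces, 3 were called lower and 1 higher, where 2.22% and 3.58% of all tested genes were, with a median log2 fold change of -0.17 against 0.00. Of the 13 estimates 11 were lower and 2 higher (8 and 5 with library totals alone, where the median was -0.10), and the median was -0.39 without DE replicate 1, -0.35 without FA replicate 3 and -0.29 without FA replicate 6. Myh6, α-myosin heavy chain, fell from 21243 to 24708 CPM in FA to 13762 to 15429 CPM in DE, a log2 fold change of -0.67 (SE 0.09, adjusted p = 0.00315 in edgeR) that was called in all 19 alternatives. Ucp3, a mitochondrial carrier, fell from 8.95 to 11.3 CPM to 0.143 to 0.363 CPM (-5.47, adjusted p = 1.28e-06). Atp2a2, the calcium pump SERCA2, fell by 0.51 (adjusted p = 0.0362) and Kcna5, a potassium channel, rose by 0.66 (adjusted p = 0.0356). The Atp2a2 call was lost in 8 of 19 alternatives, among them those without FA replicates 2, 3 or 4 or DE replicates 3, 5 or 7 (adjusted p 0.0535 to 0.118), that with the name prefix as a term (-0.44, adjusted p = 0.149) and that with prefix 11 alone (0.188). The Kcna5 call was lost in 7, among them those without any 1 of the FA replicates or DE replicate 3 (adjusted p 0.0599 to 0.107), that with the prefix as a term (0.50, adjusted p = 0.153) and that with prefix 11 alone (0.114).

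Of 6 cardiac genes that the hormone represses, 1 was called higher and 1 lower (3.58% and 2.22% of all tested genes). Of the 6 estimates 4 were lower and 2 higher, so most estimates were lower in this list as in the induced one. The median log2 fold change was -0.13, with -0.26 without FA replicate 6 and -0.06 with library totals alone. Among those lower, Slc8a1 had -0.57 (adjusted p = 0.0988 in edgeR), was called in 3 of 19 alternatives, and had -0.28 with the name prefix as a term. Myh7, β-myosin heavy chain, rose from 9205 to 11229.6 CPM in FA to 13520.1 to 15529 CPM in DE (log2 fold change 0.53, SE 0.10, adjusted p = 0.0157). Its call was lost with the name prefix as a term (0.53, adjusted p = 0.0512) and with the libraries of prefix 11 alone (0.52, adjusted p = 0.0724). In both fits the estimate hardly changed and rested on 2 DE libraries. Pln, the SERCA2 inhibitor phospholamban, fell by 0.38 (adjusted p = 0.0360), a call lost in 10 of 19 alternatives, among them those without any 1 of the FA replicates or DE replicates 3 or 5 (adjusted p 0.0557 to 0.116), that with the prefix as a term (-0.31, adjusted p = 0.170) and that with prefix 11 alone (0.215). Of 9 tested general response genes, 2 were called, both lower (2.22% of all tested genes), namely malic enzyme Me1 (-0.69, adjusted p = 0.00650) and the carnitine transferase gene Cpt1a (-1.49, adjusted p = 8.52e-05). Klf9, a direct receptor target in many tissues, had a log2 fold change of -0.10 (adjusted p = 0.811) whose sign turned in 4 alternatives, among them those without FA replicate 2 (0.06) and DE replicate 5 (0.04). Myh6, Myh7, Cpt1a, Ucp3 and Acacb also respond to signals other than thyroid hormone, and hormone levels were not measured in these files.

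**Figure D3:**
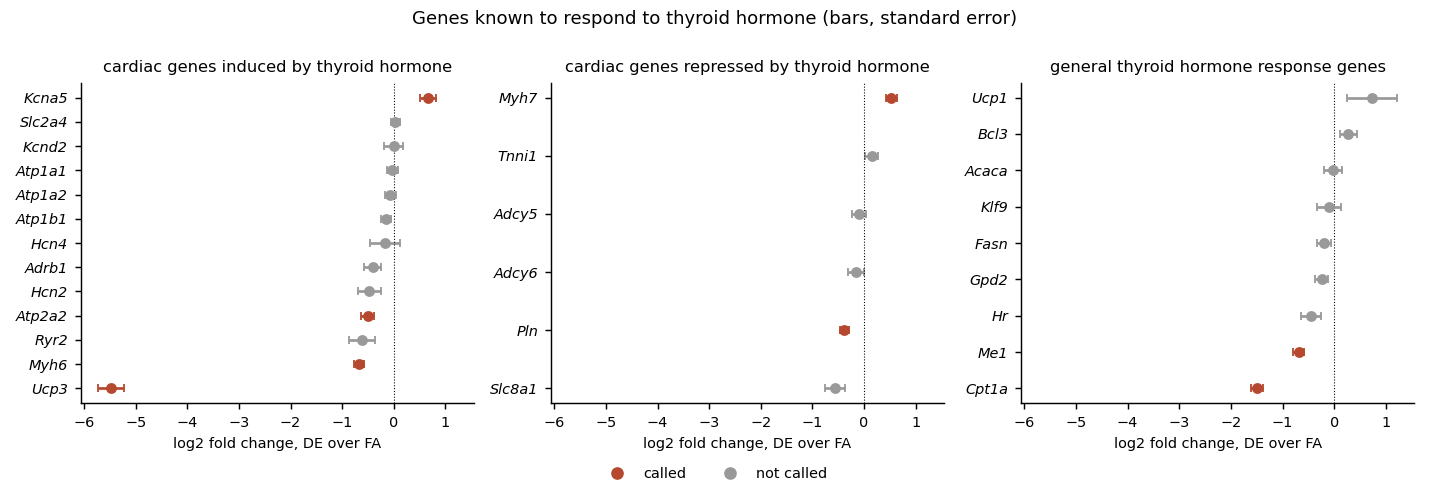
Log2 fold change of DE over FA with its standard error for the tested genes of 3 lists of thyroid hormone response genes, red where called and grey where not. Called genes lie on both sides of 0 among induced and among repressed cardiac genes, Ucp3 (-5.47) farthest from it.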

How the data were processed

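Poly-A RNA from NCMs was sequenced as stranded libraries on an Illumina sequencer. The authors aligned reads to mm10 with Tophat, marked duplicates with Picard without removing them, processed alignments with GATK and deposited raw counts per Entrez gene from featureCounts, without normalization. Whether marked duplicates were counted is not given in the sources used here. If they were, counting precision would be overstated. The methods state a smaller n than the 4 libraries per group of the series, and all 8 libraries were used, grouped by their treatment label. Symbols were matched for 93.0% of 27179 rows, and unmatched rows held 0.384% to 0.581% of a library's counts and stayed in the totals. Totals ran from 17943024 to 39839737 counts.

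The filter filterByExpr (count minimum of 10) kept 14966 genes, which were tested with edgeR 4.0.16 (glmQLFit and glmQLFTest, TMM factors, R 4.3.3). Exposure was the only term, and p-values were adjusted by Benjamini-Hochberg over every tested gene. CPM values use the same factors. The p-values measure the spread between these libraries. The 9 genes and all lists were chosen with earlier results of these data known, and the lists come from general knowledge. From each list the called genes and up to 3 of the most abundant others could be named (Rtl1 and single marker genes were added after their values were seen), and genes most like each receptor were the 3 with the smallest centred log2 CPM difference (prior count 2). Exon lengths and overlaps come from GENCODE annotation of GRCm38. The alternatives comprised limma-voom (limma 3.58.1), DESeq2 1.42.0, the likelihood ratio test of edgeR, other scalings and filters, the name prefix as a term or prefix 11 alone, length and GC offsets (known for 92.5% of tested genes) and leaving out each library. On simulated data with 200 changed genes, 95% were recovered with 6 false calls among 14810 genes. The planted changes were larger than any estimate of the tested thyroid hormone genes, and no prefix or length trend was simulated. This recovery therefore does not measure the power for changes of their size. Of the genes first listed, 2 are not reported here. The protein sequences of these genes were not used here.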

Additional observations from a re-analysis of the deposited data

Results flagged for a closer look

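In each group of 4 libraries, the highest and the lowest library were compared with the others for 43 of the genes listed, 86 groups in all. In 5 of them a library stood apart by Dixon's test, where chance gives about 1 in 20. Among the thyroid hormone genes this was Thra alone, with 80.1 CPM in FA replicate 6 against 113 to 119 CPM in the other FA libraries. The same library was high for Dlk1, with 68.7 CPM against 47.6 to 48.1 CPM. DE replicate 3 was high for Kcna5, with 12.6 CPM against 8.15 to 8.71 CPM. Ucp3 was high in FA replicate 2, with 11.3 CPM against 8.95 to 9.32 CPM, and in DE replicate 1, with 0.363 CPM against 0.143 to 0.175 CPM.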

How the results depend on the processing

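The number of thyroid hormone genes called was 0 in 15 of 19 alternatives and 1 in the other 4, which were DESeq2, the likelihood ratio test and the fit without FA replicate 6 (Slc16a10 each time) and the fit without DE replicate 1 (Thrb). Leaving out 1 library gave 0 to 1. Of all genes, 868 were called in the quasi-likelihood test, 1618 with DESeq2, 1603 with the likelihood ratio test, 1539 with length and GC offsets, 448 with the name prefix as a term, 260 with prefix 11 alone, and 237 to 1168 with 1 library left out. The counts fell to 249, 433, 237, 268 and 526 without FA replicates 2, 3 and 4 and DE replicates 3 and 5.

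Signs turned for genes near 0, among them Med1, Thrsp, Nr1d1 and Klf9. Med1 was at 0.0126 with the prefix as a term, 0.0086 with prefix 11 alone and 0.0702 with offsets. Thrsp was at -0.0102 with limma-voom and -0.15 with offsets, and ran from -0.0959 to 0.0844 with 1 library left out. Nr1d1 was at -0.0167 with the prefix, -0.0214 with prefix 11 alone and -0.0796 with offsets, and Klf9 at 0.22 in both prefix fits. With 1 library left out Nr1d1 ran from -0.0384 to 0.0709 and Klf9 from -0.326 to 0.064. The cause was not tested. Thra, Thrb, Dio2, Slc16a10 and Ncor1 kept their direction in all 19 alternatives. No scaling moved the median of all genes by over 0.1. The labels pair no FA library with a DE library, so no paired analysis was made. Depth limits Thrb, Thrsp and Dio3, with at most 89 counts in a library.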
